A study of Homo sapiens with 4 samples.

Results

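AKT1 and AKT2, which encode isoforms of the kinase AKT, and AKT1S1, which encodes an AKT substrate, were examined in RNA sequencing of A375 melanoma cells. They are 3 of the 2864 genes with values in the deposited table used here and were chosen by their gene names. A375 is an established human melanoma cell line. The 4 libraries were untreated parental cells (A375P), the resistant strain kept in vemurafenib continuously and made by stepwise rising doses (A375R), cells given 1‰ DMSO for 48 h (A375+DMSO) and cells given 2 μM vemurafenib for 48 h (A375+VEM). All are labelled wild type and were grown in the same medium with serum. Vemurafenib inhibits the kinase BRAF, and the study concerned resistance to it in melanoma with mutated BRAF. The wild type label is thus not read here as the state of BRAF. Whether A375R is a single clone is not given in the sources used here. The study set A375R against A375P for stable resistance and A375+VEM against A375+DMSO for the acute response.

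AKT kinases are serine/threonine kinases that act downstream of PI3K. The lipid made by PI3K brings AKT to the plasma membrane, where PDK1 and the complex mTORC2 activate it by phosphorylation, and active AKT then supports survival, growth and glucose use through its substrates. AKT1S1, also named PRAS40, is a subunit of mTORC1 that restrains this complex until AKT phosphorylates it. In melanoma the PI3K-AKT route runs beside the BRAF-MEK-ERK route, and its activity is known as one way by which cells withstand BRAF inhibition. The values here are RNA levels and say nothing of AKT phosphorylation, by which its activity is set. From Western blots of phosphorylated PI3K and AKT, the study reported suppressed PI3K-AKT signaling in A375R.

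Each condition had 1 library, so the differences below carry no measure of the spread between cultures, and no p-values are given. Levels are TPM, a unit that corrects reads for the length of the gene and for the total of its library. The 95% intervals are exact and cover counting error only, so a library whose interval stands apart from another may still lie within the unmeasured spread between cultures. In the part of the gene list used here the reads summed to 2054277 in A375P and 1963230 in A375R, with 1891215 in A375+DMSO against 1932550 in A375+VEM, which is not the depth of the libraries. The genes used here run in alphabetical order from names in A to names in CAC, so most genes of the pathway were not analysed here.

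AKT1 was lowest in A375P, and the other 3 libraries lay closer together. The gene spans chromosome 14 between 105235686 and 105262080, minus strand (hg19, the build in the submitters' processing notes). AKT1 drew 1655 reads in A375P and 2192 in A375R, with 2506 in A375+DMSO against 2650 in A375+VEM. The level of AKT1 was 59.4 TPM in A375P (95% interval 56.6 to 62.4) and 87.1 in A375R (83.5 to 90.9), with 96.5 in A375+DMSO (92.7 to 100) against 103 in A375+VEM (98.8 to 107). Each neighbour in this order differed by more than counting error, although the step from A375+DMSO to A375+VEM was small, at a ratio of 1.06 (95% interval 1.01 to 1.13). In such bulk libraries fewer cells with the transcript and less RNA per cell cannot be told apart. AKT1 was among the more abundant transcripts: it lay above 78.1% of the protein-coding genes with at least 1 TPM in A375P and above 90.1% of them in A375+VEM.

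AKT2 varied least, with a highest level 1.41 times the lowest. Its coordinates are 40736224 to 40791302 of chromosome 19, minus strand. AKT2 had 2450 reads in A375P and 2350 in A375R, with 2732 in A375+DMSO against 3195 in A375+VEM. These reads corresponded to 53.9 TPM in A375P (95% interval 51.8 to 56.1) and 57.3 in A375R (55.0 to 59.6), with 64.5 in A375+DMSO (62.1 to 66.9) against 75.9 in A375+VEM (73.3 to 78.6). The order of the libraries was that of AKT1, but A375P and A375R were nearly level, at a ratio of 1.06 whose interval, 1.00 to 1.12, only just left out 1. In the RefSeq annotation (GRCh38, used for names only) AKT2 overlaps the microRNA gene MIR641, and AKT1 and AKT2 each overlap a locus without a symbol of its own, none of which was analysed here.

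AKT1S1 differed from both, with its highest level in A375P. The gene occupies 50372290 to 50381613 of chromosome 19, also minus strand. AKT1S1 drew 4362 reads in A375P and 1937 in A375R, with 1956 in A375+DMSO against 2877 in A375+VEM. The level was 169 TPM in A375P (95% interval 164 to 174) and 83.1 in A375R (79.5 to 86.9), with 81.3 in A375+DMSO (77.7 to 84.9) against 120 in A375+VEM (116 to 125). A375R and A375+DMSO could not be told apart at this depth, with a ratio of 1.02 (95% interval 0.960 to 1.09), A375+VEM lay above them and A375P was highest. In the RefSeq annotation AKT1S1 overlaps the gene TBC1D17, which was not analysed here. Whether reads were counted by strand is not given in the sources used here, so reads of the neighbour could enter the AKT1S1 count.

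**Figure D1:**
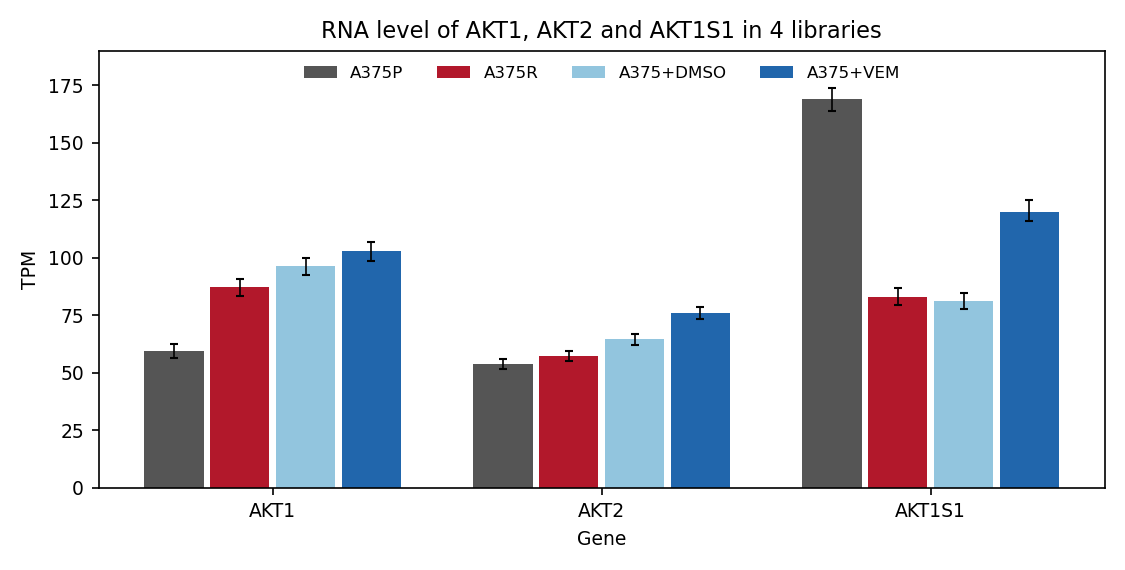
Bars give the TPM (vertical axis) of AKT1, AKT2 and AKT1S1 in each of the 4 libraries, and error bars are exact 95% Poisson intervals on the reads. A375P is the lowest library for AKT1, at 59.4 TPM, and the highest for AKT1S1, at 169 TPM.

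Between A375R and A375P, AKT1S1 was lower in the resistant strain and AKT1 was higher. The ratio of TPM was 0.492 for AKT1S1 (95% interval 0.466 to 0.519), 1.47 for AKT1 (1.37 to 1.56) and 1.06 for AKT2 (1.00 to 1.12). A gene was counted as past the threshold when the ratio of (TPM + 0.1) was past 1.5-fold upward or downward, among genes with at least 1 TPM in 1 of the 2 libraries. By this rule 1 of the 3 genes was past it, AKT1S1, whose log2 ratio of -1.02 was larger in size than that of 78.4% of the genes compared. Of all 1689 genes compared, 44.3% were past 1.5-fold, so differences of this kind were common between these libraries. AKT1 was just under the threshold. For AKT2, the log2 ratio was 0.09, about that of the median gene at 0.10, and scaling to a median ratio of 1 took it to -0.01.

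In the acute pair AKT1S1 was higher with vemurafenib and AKT1 was nearly level. From A375+DMSO to A375+VEM the ratio was 1.48 for AKT1S1 (95% interval 1.40 to 1.57), 1.18 for AKT2 (1.12 to 1.24) and 1.06 for AKT1 (1.01 to 1.13). None of the 3 genes was past 1.5-fold, beside 46.2% of the 1784 genes compared. The median log2 ratio of all genes was 0.11 in this pair, and relative to it AKT1 stood at -0.01, AKT2 at 0.13 and AKT1S1 at 0.46. With the libraries scaled by the reference genes ACTB, ATP5B and B2M, AKT1S1 passed the threshold at a log2 ratio of 0.75. ACTB itself was at a ratio of 0.650 and B2M at 1.58 in this pair, so these genes were no steady reference here.

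The libraries without vemurafenib differed from each other by about as much as A375R did from A375P. Between A375+DMSO and A375P the ratio was 1.62 for AKT1 (95% interval 1.52 to 1.73), 1.20 for AKT2 (1.13 to 1.26) and 0.481 for AKT1S1 (0.455 to 0.507). Here 2 of the 3 genes were past 1.5-fold, AKT1 upward and AKT1S1 downward, beside 45.7% of 1720 genes. This comparison and that of A375R with A375P share the A375P library, so their likeness is no independent support for either. The comparisons against A375+DMSO share that library in the same way.

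With A375+DMSO as the control of A375R, none of the 3 genes was past 1.5-fold, beside 20.5% of 1702 genes. The ratio was then 0.904 for AKT1 (95% interval 0.853 to 0.957), 0.889 for AKT2 (0.840 to 0.939) and 1.02 for AKT1S1. The difference in AKT1 thus changed direction with the control. AKT2 was nearly level against A375P and lower against A375+DMSO, and the difference in AKT1S1 was no longer detectable. With A375P as the control of A375+VEM, AKT1 was at 1.73 (1.62 to 1.84), AKT2 at 1.41 (1.33 to 1.48) and AKT1S1 at 0.712 (0.679 to 0.746). Of the 3 genes, 1 was then past 1.5-fold, AKT1, beside 62.1% of 1782 genes. AKT2 was at or above its A375P level in the other 3 libraries, whereas AKT1S1 was below its A375P level in all of them.

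**Figure D2:**
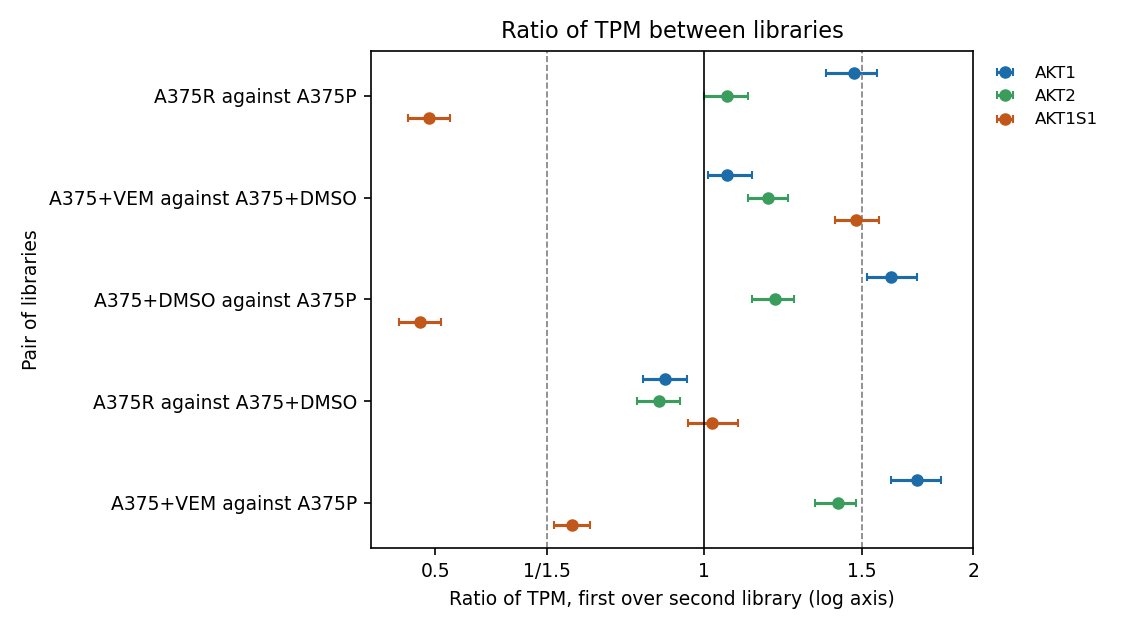
Points give the ratio of TPM of the first library over the second (horizontal log axis) for AKT1, AKT2 and AKT1S1 in 5 pairs of libraries, with exact 95% intervals on the reads. Dashed lines mark 1.5-fold in either direction. AKT1S1 lies at 0.492 and 0.481 in the pairs of A375R and A375+DMSO with A375P, and at 1.02 between A375R and A375+DMSO.

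Within each library AKT1 stood above AKT2 per length, by the least in A375P. AKT1 exceeded AKT2 by a ratio of TPM of 1.10 in A375P (95% interval 1.03 to 1.17) and 1.52 in A375R (1.43 to 1.61), with 1.5 in A375+DMSO (1.42 to 1.58) against 1.35 in A375+VEM (1.28 to 1.42). The balance of AKT1 to AKT2 was thus 1.38 times that of A375P in A375R (95% interval 1.27 to 1.51), and it was indistinguishable between A375R and A375+DMSO, at 1.02 (0.938 to 1.10). In the acute pair it moved by a factor of 0.904 (0.838 to 0.975). A ratio of genes within a library does not depend on how the libraries are scaled. It does rest on the gene lengths in the table, 3249 bases for AKT1 and 5300 for AKT2, since AKT2 had more reads than AKT1 in each library.

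Together AKT1 and AKT2 summed to 113 TPM in A375P (counting standard error 1.82) and 144 in A375R (2.20), with 161 in A375+DMSO (2.29) against 179 in A375+VEM (2.41). The sum thus stood in the order in which both genes stood, and each step exceeded counting error. AKT1 made up 52.4% of it in A375P, where the genes were nearest to level, and 60.3% in A375R, which compares with 59.9% in A375+DMSO and 57.5% in A375+VEM.

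AKT1S1 exceeded AKT1 in A375P, with a ratio of TPM of 2.84 (95% interval 2.69 to 3.01). In A375R the genes were level, at 0.954 (0.897 to 1.01). A375+DMSO was at 0.843 (0.794 to 0.894) and A375+VEM at 1.17 (1.11 to 1.24). Substrate and kinase RNA thus stood farthest apart in A375P, and the ratio in A375R was 0.335 times that in A375P (0.308 to 0.365).

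**Figure D3:**
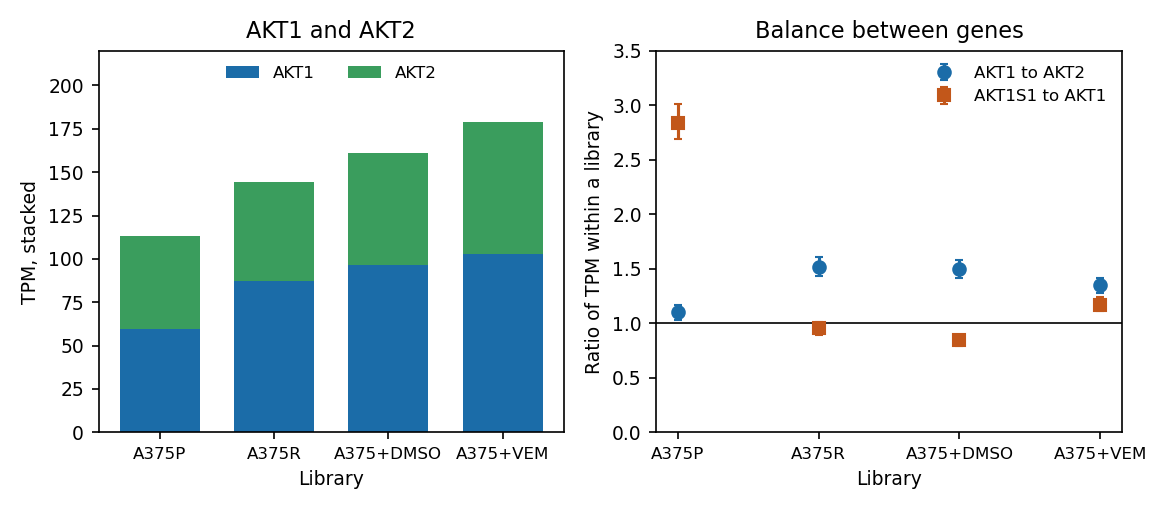
The left panel stacks the TPM of AKT1 and AKT2 in each library, and the right panel gives the ratio of TPM of AKT1 to AKT2 and of AKT1S1 to AKT1 within each library, with exact 95% intervals on the reads. The stacks reach 113 TPM in A375P and 144 to 179 in the other libraries, and the ratio of AKT1S1 to AKT1 is 2.84 in A375P and 0.843 in A375+DMSO.

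Genes of the route were taken from lists of its activators, substrates and targets, and 25 of their 109 genes, AKT1S1 among them, are in the table. Of these 25 genes, 14 were past 1.5-fold between A375R and A375P, 9 between A375+VEM and A375+DMSO and 14 between A375+DMSO and A375P. These are 56.0%, 36.0% and 56.0%, beside the shares of 44.3%, 46.2% and 45.7% of all genes given above. Against A375+DMSO, 5 of the 24 genes compared were past it in A375R, beside 20.5% of all genes.

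Upstream of AKT, 6 of 29 listed activators, adaptors and brakes could be compared. In A375R against A375P, 4 were past 1.5-fold upward and none downward, beside 26.8% of all genes upward and 17.5% downward, with a median log2 ratio of 0.78 beside 0.10 for all genes. They were APPL2, an endosomal adaptor that binds AKT, the PI3K- and AKT-binding GTPase AGAP2, and the beta-arrestins ARRB1 and ARRB2, which act as scaffolds at receptors. The TPM of ARRB1 was 2.99 in A375P and 10.9 in A375R, with 8.58 in A375+DMSO against 11.1 in A375+VEM. AGAP2 had 55 reads in A375P and 141 in A375R, with 405 in A375+DMSO against 370 in A375+VEM, so A375+DMSO and not A375R was its highest library. AKTIP, an AKT-binding protein, and APPL1 were at log2 ratios of 0.19 and 0.22. The 4 genes were also past the threshold in A375+DMSO against A375P, beside 45.7% of all genes past it there, and in the acute pair none of the 6 was, beside 46.2%, with a median of -0.13. Against A375+DMSO, AGAP2 alone was past 1.5-fold in A375R, beside 20.5% of all genes, and lower, at a ratio of 0.360 (95% interval 0.295 to 0.437).

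Receptors and ligands that feed PI3K were few in the part of the list used here, 4 of 25. AXL, a receptor tyrosine kinase, was abundant, at 659 TPM in A375P and 575 in A375R, with 358 in A375+DMSO against 92.4 in A375+VEM. From A375+DMSO to A375+VEM, AXL was at a ratio of 0.258 (95% interval 0.249 to 0.268). Of the ligands of the EGF receptor family, AREG had 81 reads in A375P and 238 in A375R, with 85 in A375+DMSO against 1 in A375+VEM, and BTC had 45, 44, 15 and 102. The ratio of AREG in the acute pair was 0.0118, with an interval from 0.000297 to 0.0678. The receptor kinase ALK had 86 reads in A375P and 35 in A375R, with 33 in A375+DMSO against 115 in A375+VEM. So in the acute pair all 4 were past 1.5-fold, beside 46.2% of all genes, AXL and AREG downward and ALK and BTC upward. In A375R against A375P, AREG was past it upward and ALK downward, beside 44.3% of all genes, and against A375+DMSO the 3 genes that could be compared, AXL, AREG and BTC, were past it upward, beside 10.5% of all genes, at ratios of 1.60, 2.89 and 3.03. A375+DMSO was itself low for 3 of the 4 genes: against A375P, AXL, BTC and ALK were past 1.5-fold downward in it, at 0.543, 0.357 and 0.411, beside 18.9% of all genes downward. Against A375P, A375R had AXL at 0.872 and BTC at 1.08.

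AKT1S1 was the only 1 of 6 listed mTORC1 subunits in the table. Of the 30 listed AKT substrates 10 are in it, AKT1S1 among them. In A375R against A375P, 3 were past 1.5-fold upward and 2 downward, near the 44.3% of all genes past it, and their median log2 ratio of 0.10 was that of all genes. The 3 were ACLY, which makes acetyl-CoA for lipid synthesis, the death-promoting protein BAD and ATXN1. Beside AKT1S1, the apoptosis effector BAX was lower, at 282 TPM in A375P and 152 in A375R, with 139 in A375+DMSO against 210 in A375+VEM. ACIN1, which acts in chromatin condensation during apoptosis, was at a ratio of 0.684 (95% interval 0.649 to 0.720), near the lower limit. BECN1, an autophagy protein, BRAF itself and BRCA1, a DNA repair protein, stayed within 1.5-fold, at log2 ratios of 0.10, 0.09 and 0.33. Against A375+DMSO none of the 10 was past 1.5-fold in A375R, beside 20.5% of all genes.

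In A375+VEM against A375+DMSO, 2 of the 10 substrates were past 1.5-fold upward, BAX and BCL2L11, and BRCA1 downward, beside 46.2% of all genes in either direction. BRCA1 had 1014 reads in A375P and 1151 in A375R, with 1104 in A375+DMSO against 163 in A375+VEM, a ratio of 0.149 in the acute pair (95% interval 0.125 to 0.175). BCL2L11, which encodes the death-promoting protein BIM, had 195, 148, 214 and 670 reads in the same order of libraries, a ratio of 3.15 (2.70 to 3.69). BAD was at 1.48 (1.35 to 1.63), as was AKT1S1.

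FOXO factors are kept out of the nucleus by AKT, and 6 of 28 listed FOXO target genes are in the table. In the acute pair 3 were past 1.5-fold, all upward, AGRP, BCL2L11 and BCL6, near the 46.2% of all genes past it (26.5% upward), with a median log2 ratio of 0.29 beside 0.11 for all genes. BCL6, a transcriptional repressor, had 154 reads in A375P and 361 in A375R, with 429 in A375+DMSO against 1288 in A375+VEM. AGRP had only 9 and 15 reads in the libraries of the acute pair, and its ratio of 1.68 has an interval from 0.688 to 4.35, so a difference was not detectable with so few reads. The mitophagy gene BNIP3, the death-promoting BBC3 and the antiproliferative BTG1 were at log2 ratios of -0.33, -0.13 and -0.26. In A375R against A375P, BCL6 and AGRP were past 1.5-fold upward and BBC3 downward, beside 44.3% of all genes, at a median of 0.06, although AGRP had only 3 reads in A375P and 7 in A375R (interval of the ratio 0.590 to 15.5). Against A375+DMSO the median was -0.25, with BNIP3 past 1.5-fold downward, beside 20.5% of all genes in either direction.

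**Figure D4:**
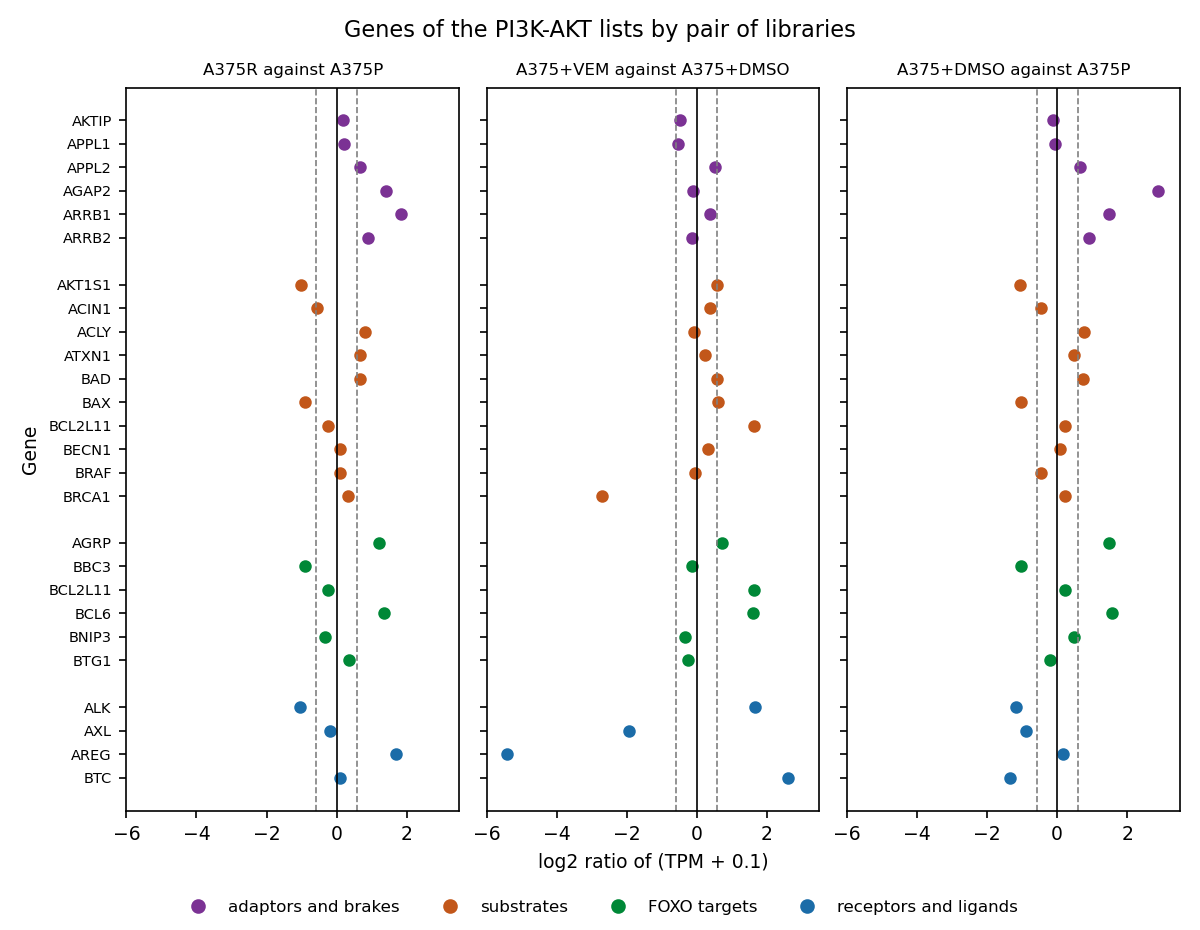
Each point is the log2 ratio of (TPM + 0.1) (horizontal axis) of 1 gene of the lists of adaptors and brakes, substrates, FOXO targets, and receptors and ligands, in 3 pairs of libraries. Dashed lines mark 1.5-fold. In the panels of A375R and A375+DMSO against A375P, the genes APPL2, AGAP2, ARRB1 and ARRB2 lie to the right of it. In the panel of A375+VEM, AREG lies farthest left, at -5.41.

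The genes with a pattern most like each member were sought among the other 860 protein-coding genes with at least 10 TPM in every library, by the distance between their centred log2(TPM + 0.1) values over the 4 libraries. For AKT1 they were the mitochondrial transporter gene ABCB8, the DNA repair enzyme gene APEX1 and BRAT1, at distances of 0.11, 0.12 and 0.13 beside a median of 0.85 over all genes searched. For AKT2 they were ANGEL1 at 0.06, and ARV1 and C19orf43 at 0.07 each, beside a median of 0.71. For AKT1S1 they were BAX at 0.09, the actin-related ACTR3B at 0.12 and ATP6V1G1, a subunit of the vacuolar proton pump, at 0.14, beside a median of 1.05. ACTR3B had 577 reads in A375P and 245 in A375R, with 247 in A375+DMSO against 405 in A375+VEM, the order in which the reads of AKT1S1 stood. With 4 libraries many genes share a pattern, and nothing further is read from it.

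**Figure D5:**
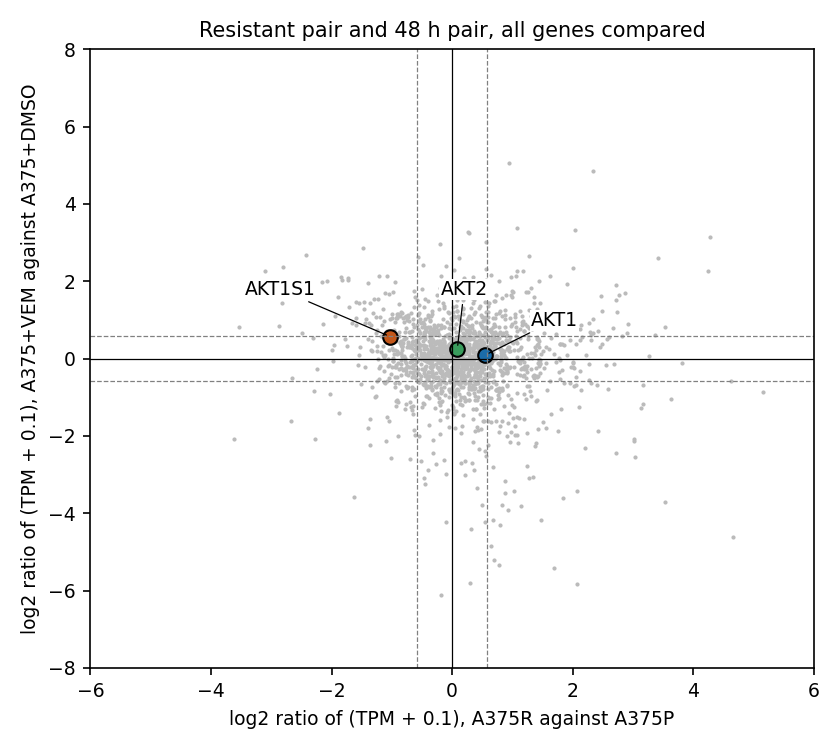
Each grey point is 1 of 1656 genes compared in both pairs, by its log2 ratio of (TPM + 0.1) in A375R against A375P (horizontal) and in A375+VEM against A375+DMSO (vertical); dashed lines mark 1.5-fold. AKT2 lies near the centre of the cloud, AKT1 lies to the right at 0.55 and 0.09, and AKT1S1 lies to the left at -1.02 and 0.57.

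AKT1S1 was thus below A375P in the resistant strain and above the solvent control after acute vemurafenib (log2 ratios -1.02 and 0.57). The controls differ between these pairs. A375+VEM was also below A375P, at a ratio of 0.712 (interval 0.679 to 0.746). A375R was not detectably different from A375+DMSO, at 1.02 (0.960 to 1.09). With the same control for both, AKT1S1 thus showed no opposite directions. Whether the pair of A375R with A375P differs from the acute pair was not tested. Of the 1656 genes, 200 went past 1.5-fold in opposite directions, 168 went past it the same way, and none of AKT1, AKT2 and AKT1S1 was past it in both.

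The markers of cell type could be checked only in part. Of 12 melanocyte lineage genes 3 are in the part of the list used here: BCAN at 15.4 to 34.1 TPM, APOE at 11.3 to 26.3 and ABCB5 at no more than 0.0978. Their summed level was 45.5 TPM in A375P and 49.0 in A375R, with 32.6 in A375+DMSO against 43.3 in A375+VEM. Of 5 fibroblast or muscle genes, ASPN was at or near 0 and ACTA2, an actin of contractile cells, had 92.2 TPM in A375P and 35.0 in A375R, with 28.3 in A375+DMSO against 40.1 in A375+VEM. ACTA2 was thus highest in A375P, as AKT1S1 was, and its part in that result was not tested. The 7 blood cell genes of 10 summed to 1.38 TPM in A375P and 2.86 in A375R, with 3.32 in A375+DMSO against 3.87 in A375+VEM, led by AZU1 in A375P and A375+VEM and by BPI in A375R and A375+DMSO. The 1 endothelial gene of 4, APLNR, was at or near 0, and no epithelial gene of 4 is in the part of the list used here.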

How the data were processed

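RNA was sequenced from the 4 conditions of A375 cells, each as 1 library per the labels. The authors deposited a table that holds, for every gene, raw counts and TPM in each library. The TPM deposited there equals the count over gene length times 1 factor per library, within 1% for every gene of 10 or more reads, so reads and TPM carry the same information. The submitters' processing notes name hg19, HISAT2, HISAT, TopHat2 and Bowtie2 without a role, and the counting program is not given in the sources used here. Of 2653 names shared with GENCODE on GRCh38, 9 had the same start or end. The table used here holds 2864 genes, and 1 incomplete row was left out. These genes carry 8.48% to 8.94% of the TPM of each library.

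Pairs were compared by the ratio of (TPM + 0.1), which understates the change of low genes, with Clopper-Pearson 95% intervals on the reads scaled by the library sums. Single ratios are of TPM without the 0.1. Intervals of a change in balance between genes are exact conditional intervals of the odds ratio. No test was run, since each condition has 1 library, and reads may not be independent molecules. The members and lists were chosen with earlier results of these data known. The genes named were AKT1, AKT2 and AKT1S1, the listed genes in the table, and the 3 genes nearest to each member in pattern. Alternatives were pseudocounts of 1 and 0.01, a median ratio of 1, scaling by reference genes, the other control, dropping the low-value filter or raising it to 5 TPM, a 2-fold threshold, an interval that leaves out 1, and counts without length. Some genes are not reported here and do not enter the list counts. The steps were tested on simulated data. Software was scipy 1.17.1, numpy 2.4.6, matplotlib 3.10.9 and pandas 2.3.3 under Python 3.11.15.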

Additional observations from a re-analysis of the deposited data

Results flagged for a closer look

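In the lists, 3 genes were past 1.5-fold one way in the resistant pair (A375R over A375P) and the other way in the acute pair (A375+VEM over A375+DMSO), and no test of that contrast was made. They are 12.0% of the 25 list genes, beside 12.1% of the 1656 genes compared in both pairs. The log2 ratio of (TPM + 0.1) for ALK was -1.05 in the resistant pair and 1.67 in the acute pair. For AREG it was 1.69 and -5.41, the latter with 1 read in A375+VEM. For BAX it was -0.90 and 0.59. With A375+DMSO as the control of A375R, the ratio of TPM was 1.10 for ALK, which had under 1 TPM in both libraries, 1.09 for BAX and 2.89 for AREG, so AREG alone of the 3 stayed past 1.5-fold.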

How the results depend on the processing

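Pseudocounts of 1 and 0.01, a TPM of at least 5 and the added demand on the interval left every value within its interval, or every count within 1.5 times. Of these choices the control moved the log2 ratios of AKT1, AKT2 and AKT1S1 most, in A375R against A375P and in the acute pair. With A375+DMSO in place of A375P, the log2 ratio in A375R was -0.15 for AKT1, in the other direction. For AKT2, nearly level against A375P, it was -0.17, and for AKT1S1 it was 0.03, with no detectable direction. Past 1.5-fold were then 20.5% of all genes, 5 list genes and 0 of the 3. With A375P in place of A375+DMSO, A375+VEM had log2 ratios of 0.79 for AKT1, 0.49 for AKT2 and -0.49 for AKT1S1, with 17 of 25 list genes and 1 of the 3 past 1.5-fold, beside 62.1% of all genes. At a median ratio of 1, AKT1, AKT2 and AKT1S1 were at 0.45, -0.01 and -1.12 in A375R against A375P, at -0.01, 0.13 and 0.46 in the acute pair and at 0.60, 0.16 and -1.15 in A375+DMSO against A375P. With reference genes they were at 0.27, 0.42 and 0.75 in the acute pair, with 1 of the 3 past 1.5-fold, beside 48.9% of all genes. Without the filter 1237, 1282 and 1266 of all 2864 genes (43.2%, 44.8% and 44.2%) were past 1.5-fold in these 3 pairs, beside 748, 825 and 786 with it. At a 2-fold threshold, stricter by construction, 22.2%, 26.4% and 26% of the genes compared were past it. At 2-fold, 7 list genes were past it in A375R against A375P, and 9 list genes and 1 of the 3 genes in A375+DMSO against A375P. As counts without length, the ratio of AKT1 to AKT2 was 0.676 in A375P and 0.933 in A375R, with 0.917 in A375+DMSO against 0.829 in A375+VEM. No library could be left out, and the causes were not tested.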
